A study of Mus musculus with 8 samples.

Results

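A set of 8 genes of cholesterol synthesis and its control was followed across 8 expression arrays of mouse embryonic stem (ES) cells. They are Hmgcs1, Mvd, Idi1, Fdps, Sqle, Ebp and Dhcr7, which encode enzymes of the pathway, and Insig1, which encodes a regulator of it and not an enzyme. All probes whose platform annotation carries one of these symbols were taken. Of the 8 genes, 7 had a named probe, among 18300 genes with one, and 6 were tested, among 8933 tested genes. Hmgcs1 had no named probe, and the single Sqle probe was detected on no array.

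The cells were of the R1 line, an ES line from a cross of 129X1/SvJ with the strain 129S1/SV-+p+Tyr-cKitlSl-J/+, and all of them were FGF4-/-, so they made no FGF4 of their own. Before treatment the cells spent a night in N2B27, a serum-free medium, with 10 ng/ml BMP4. The cells carried 1 shRNA vector each and were collected at day 3 in 4 groups of 2 arrays. One group had FGF4 at 20 ng/ml and an shRNA against Mp1 (shMp1Lib or shMP1G), and the other 3 had a control shRNA (shRnd1 or shRnd2) and received either the same dose of FGF4, or LIF (10 u/ml), or neither. Mp1, now named Lamtor3, encodes a scaffold protein of the MEK-ERK pathway on late endosomes, and the design asks which transcripts FGF4 changes and whether the Mp1 shRNAs alter that. The 2 arrays of a group differ in shRNA, so each group mean is over 2 vectors in 1 cell line, and nothing in the labels says whether they were separate cultures.

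Cholesterol is built from acetyl-CoA through mevalonate and the isoprenoid diphosphates to squalene, which is closed into lanosterol and then trimmed and reduced to cholesterol. The enzymes are induced together by the transcription factor SREBP-2, which is held in the endoplasmic reticulum with its escort SCAP by the INSIG proteins while sterols are plentiful, and is released and cleaved when they run low. INSIG1 is itself induced by SREBP, which closes a feedback loop. Serum-free medium supplies little lipoprotein, so cells in it rely largely on their own synthesis.

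The arrays had between 15375 and 17813 detected probes (detection p under 0.05) and median intensities between 74.1 and 91.3, the lowest being the 2 arrays labelled LIF (74.1 and 80.6). The Mp1 probe was detected on no array, at an intensity of 71.2 and 63 with the Mp1 shRNAs and of 63.8 to 70.2 elsewhere, so the knockdown could not be checked here, and Fgf4 had no named probe. Socs3, which LIF is known to induce through STAT3, had an intensity of 182.5 and 236.9 on the arrays labelled LIF and of 2153 and 2227 on those labelled as having no growth factor. This goes against the labels of these 2 groups, which are called by their labels throughout, and the values against each are given side by side. The treatment note also gives Rnd1 for both LIF samples, whereas their titles, followed here, give shRnd1 and shRnd2. The arrays with Mp1 shRNAs differed most from each other. Their residual SD over all features was 0.437 on the log2 scale, against 0.211 for the FGF4 controls, 0.291 for LIF and 0.182 for no growth factor. Pou5f1 and Dppa5a, which mark ES cells, were bright on every array, with log2 values of 13.57 to 14.1 and 14.41 to 14.66. The probe of Esrrb, another such marker, was detected on no array.

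The promoters of the genes that rose with FGF4 are shown because the genes share a known regulator. Promoter windows of 250 bases before to 50 after the annotated start were present for 6 of the 8 genes in the RefSeq table of build GRCm38.p6, in 8 windows, as Dhcr7 has 3 starts. Each is printed on its own strand, 5′ to 3′. Capitals mark matches to the CCAAT box (CCAAT, or ATTGG when it lies on the other strand), which binds NF-Y, a known partner of SREBP, and to the E-box (CACGTG, the same on both strands).
Mvd, chr8:122443373-122443672, minus strand: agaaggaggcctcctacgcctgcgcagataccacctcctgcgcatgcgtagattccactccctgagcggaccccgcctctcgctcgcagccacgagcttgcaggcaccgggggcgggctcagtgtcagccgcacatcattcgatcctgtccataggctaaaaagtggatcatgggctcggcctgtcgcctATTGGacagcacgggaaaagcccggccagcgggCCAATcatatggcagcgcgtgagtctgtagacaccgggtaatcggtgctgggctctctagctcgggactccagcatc
Idi1, chr13:8885356-8885655, plus strand: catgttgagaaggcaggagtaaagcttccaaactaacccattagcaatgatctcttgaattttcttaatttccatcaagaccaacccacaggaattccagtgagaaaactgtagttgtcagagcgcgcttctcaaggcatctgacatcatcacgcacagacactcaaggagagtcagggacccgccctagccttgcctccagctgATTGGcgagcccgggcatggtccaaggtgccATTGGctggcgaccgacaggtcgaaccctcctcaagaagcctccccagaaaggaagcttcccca
Ebp, chrX:8193463-8193762, minus strand: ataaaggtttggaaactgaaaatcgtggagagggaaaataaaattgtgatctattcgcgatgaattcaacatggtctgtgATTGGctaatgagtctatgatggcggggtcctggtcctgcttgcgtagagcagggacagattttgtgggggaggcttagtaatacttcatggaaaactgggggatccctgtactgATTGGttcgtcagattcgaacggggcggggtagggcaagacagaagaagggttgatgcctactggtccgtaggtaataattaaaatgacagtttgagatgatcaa
Dhcr7 at the third start, chr7:143829964-143830263, plus strand: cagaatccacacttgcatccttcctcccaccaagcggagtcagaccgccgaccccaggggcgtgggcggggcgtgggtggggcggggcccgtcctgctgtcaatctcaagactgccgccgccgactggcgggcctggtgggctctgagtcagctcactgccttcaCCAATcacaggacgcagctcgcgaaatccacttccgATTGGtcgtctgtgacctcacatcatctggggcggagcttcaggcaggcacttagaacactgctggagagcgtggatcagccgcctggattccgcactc
Insig1, chr5:28071162-28071461, plus strand: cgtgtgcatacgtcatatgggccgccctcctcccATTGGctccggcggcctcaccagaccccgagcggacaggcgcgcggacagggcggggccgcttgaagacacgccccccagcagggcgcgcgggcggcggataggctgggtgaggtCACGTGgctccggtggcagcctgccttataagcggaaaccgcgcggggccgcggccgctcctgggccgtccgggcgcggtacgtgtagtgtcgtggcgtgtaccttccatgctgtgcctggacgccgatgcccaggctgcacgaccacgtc

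A CCAAT box was found in all 6 genes that have a window, in 6 of their 8 windows, while 41.1% of the 27025 genes in the table have one in any window. In Mvd the matches began 60 and 27 bases before the start, in Idi1 45 and 14, in Ebp 170 and 55, in the third Dhcr7 window 85 and 49, and in Insig1 there was 1 match, 216 bases before it. An E-box was found in Insig1, 101 bases before the start, and in the second Dhcr7 window, and 8.09% of all genes have one. The sterol regulatory element, searched as TCACNCCAC and its reverse GTGGNGTGA, was found in Hmgcs1 alone among the 6, 137 bases before the start, as in 1.44% of all genes. Among 11 other enzymes of the pathway with a window, 10 had a CCAAT box, 2 an E-box and 0 a sterol regulatory element. One of them, Hsd17b7, had a CCAAT box and an E-box and did not rise with FGF4. The CCAAT box was thus not particular to genes that rose. A match describes the letters in a window and is not a binding site, and no match says only that these letters are not in this window.

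**Figure D1:**
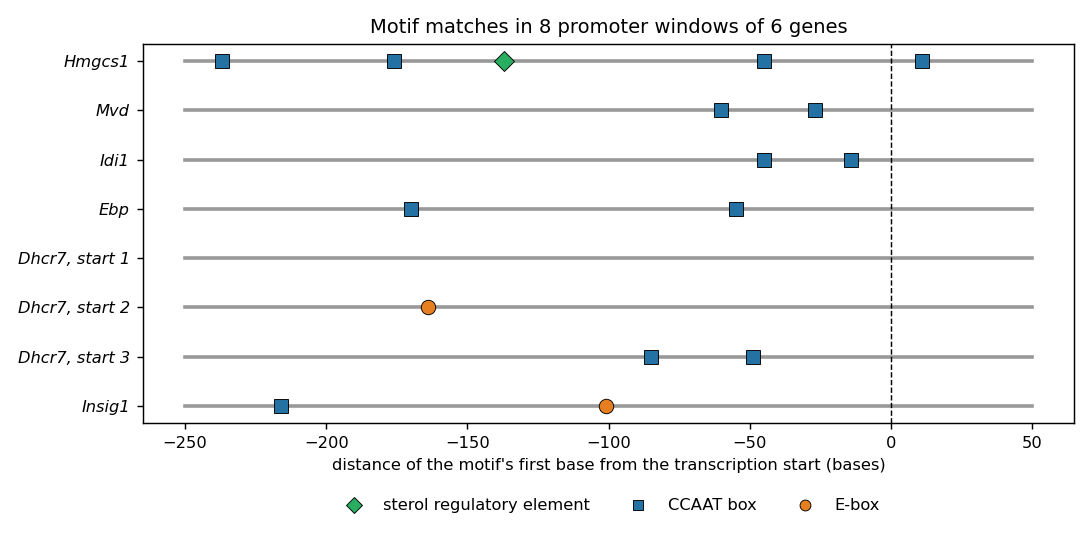
Motif matches in the 8 promoter windows of 6 genes; the x axis gives the distance in bases from the transcription start, grey lines are the windows, and each symbol is the first base of a match on either strand. Every gene has a CCAAT box in at least 1 window, Hmgcs1 alone has a sterol regulatory element, and Insig1 and the second Dhcr7 window have an E-box.

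Mvd, Idi1 and Fdps act in the middle of the pathway, where mevalonate is turned into isoprenoid diphosphates. Mvd, the decarboxylase that makes isopentenyl diphosphate, had log2 normalized intensities of 9.81 and 9.73 with FGF4 and control shRNAs, 9.57 and 9.58 with FGF4 and Mp1 shRNAs, 9.11 and 8.98 on the LIF arrays and 9.09 and 8.96 with no growth factor. All 4 FGF4 arrays lay above the 4 others, and the LIF and no-factor arrays overlapped. Idi1, the isomerase of isopentenyl diphosphate, had log2 values of 6.81 and 6.96 in FGF4 controls, 7.19 and 6.67 with Mp1 shRNAs, 5.60 and 5.41 with LIF and 6.04 and 5.87 with no factor. The 2 FGF4 groups overlapped and lay above both others, and the order below them was no factor, then LIF, where the probe was detected on 1 of 2 arrays. Fdps, which joins these units into farnesyl diphosphate, had log2 values of 12.68 and 12.71 in FGF4 controls, 12.22 and 12.77 with Mp1 shRNAs, 12.33 and 12.10 with LIF and 12.32 and 12.21 with no factor. The FGF4 controls were above the LIF and no-factor arrays, while the Mp1 pair spanned nearly the whole range. A second Fdps probe, detected on all 8 arrays at intensities of 122.4 to 229.3, differed by 0.23 on the log2 scale between FGF4 controls and no factor, where the brighter probe differed by 0.43, and neither passed.

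Hmgcs1, the synthase that feeds mevalonate synthesis, could not be measured for want of a named probe. Sqle, the epoxidase that commits squalene to sterols, had 1 named probe, annotated to the transcript AK041198, with intensities of 66.2 to 82.4 and a lowest detection p of 0.3. It was near background on every array, so nothing can be said of its change.

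Ebp and Dhcr7 act late, on the sterol ring. Ebp is the isomerase that moves the double bond of ring B. Its intensities before normalization, with decimal points restored, were 970.4 and 843.4 in FGF4 controls, 466.8 and 559.2 with Mp1 shRNAs, 383.4 and 539.3 on the dimmer LIF arrays and 415 and 451.8 with no factor. After normalization the log2 values were 9.68 and 9.65 in FGF4 controls, 8.19 and 8.88 with Mp1 shRNAs, 9.01 and 9.02 with LIF and 8.57 and 8.60 with no factor. Both FGF4 control arrays stood above the 6 others, and the Mp1 arrays lay on either side of the no-factor pair. Dhcr7, the reductase of the final step, had log2 values of 7.21 and 7.01 in FGF4 controls, 6.64 and 7.19 with Mp1 shRNAs, 5.60 and 5.51 with LIF and 6.21 and 6.04 with no factor. All 4 FGF4 arrays were above the no-factor pair, which was above the LIF pair, where the probe was detected on 1 of 2 arrays.

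Insig1, the retention protein of the SCAP-SREBP complex, had log2 values of 9.80 and 9.58 in FGF4 controls, 9.96 and 9.88 with Mp1 shRNAs, 8.86 and 8.87 with LIF and 9.18 and 9.35 with no factor. The order was Mp1 shRNAs, FGF4 controls, no factor and LIF, with no overlap between groups, although the step from FGF4 controls to Mp1 shRNAs was 0.23 with a 95% interval of -0.16 to 0.63. A second Insig1 probe was detected on no array. The plot of levels by array shows all 6 genes.

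**Figure D2:**
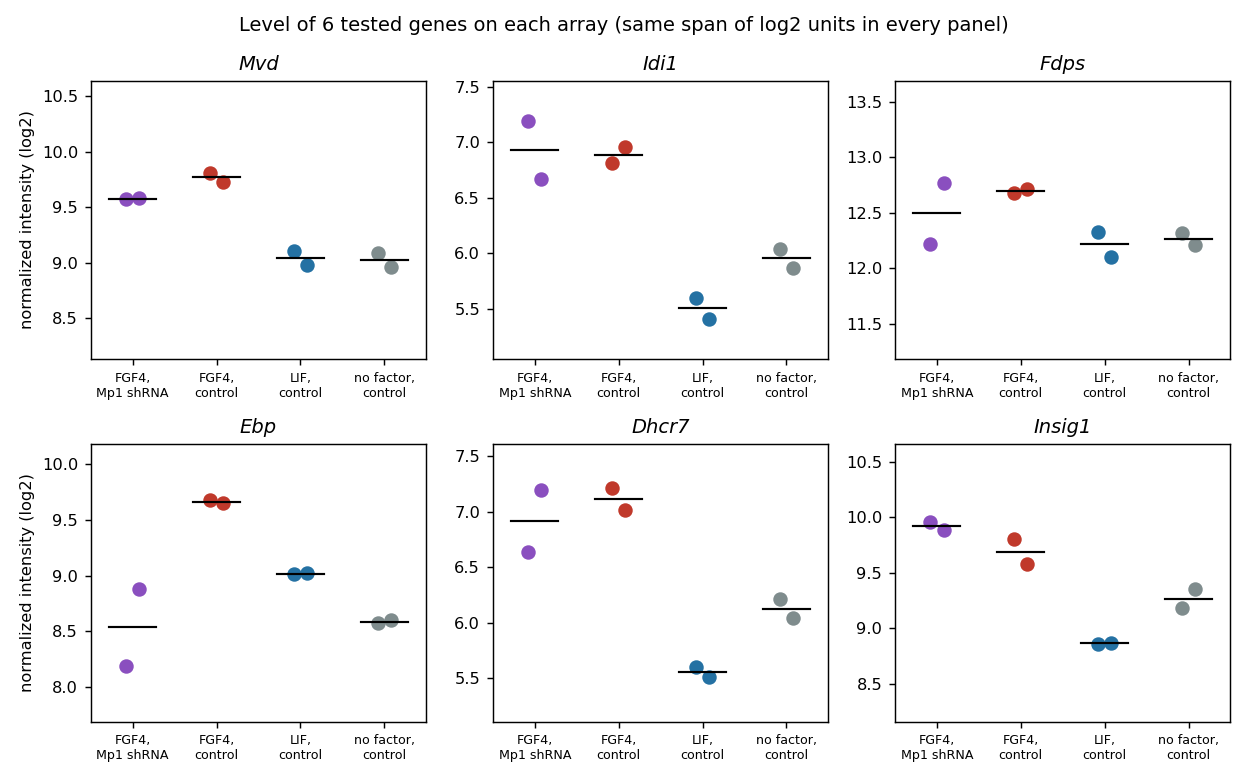
Normalized intensity (log2, y axis) of the 6 tested genes on each of 8 arrays, by group (x axis); points are arrays, lines are group means of 2 arrays, and every panel spans the same number of log2 units. The FGF4 control arrays are above the LIF and no-factor arrays for every gene, and the Mp1 arrays of Ebp (8.19 and 8.88) lie around its no-factor pair (8.57 and 8.60).

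FGF4 with control shRNAs was compared with no growth factor and with LIF to see what FGF4 changes. Against no factor, Ebp, Dhcr7, Idi1 and Mvd rose, by 1.68-fold to 2.11-fold, and all 6 genes had a positive difference. Against LIF, Dhcr7, Idi1, Insig1 and Mvd rose, by 1.65-fold to 2.94-fold, and again all 6 differences were positive. Dhcr7 and Idi1 had smaller differences when the background was not corrected. Both comparisons use the same FGF4 arrays, so they are not independent of each other.

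Against no factor, 4 of 6 genes rose and none fell, where 7.84% of all 14103 features rose (limma, Benjamini-Hochberg adjusted p under 0.05 over all features). The median difference of the 6 was 0.84 on the log2 scale and that of all features was -0.02. The genes were chosen with earlier results of these data known, so such counts and medians are descriptions and not a test of the set. Ebp rose by 1.08 (SE 0.23, 95% interval 0.54 to 1.62, adjusted p = 0.0157) and Dhcr7 by 0.99 (SE 0.22, 0.48 to 1.49, adjusted p = 0.0176). These are about the 2-fold level, at ratios of 2.11 and 1.98. Idi1 rose by 0.93 (SE 0.22, adjusted p = 0.0219) and Mvd by 0.75 (SE 0.17, adjusted p = 0.0178). Without background correction Dhcr7 and Idi1, whose probes are dim, differed by only 0.61 and 0.55, and Ebp and Mvd by 0.97 and 0.68. All 4 still passed. Insig1 and Fdps each differed by 0.43, with intervals of 0.03 to 0.82 and -0.07 to 0.93 and adjusted p of 0.152 and 0.252, and did not pass. The count rests on every array of the comparison. It was 0 of 6 without the FGF4 shRnd1, the FGF4 shRnd2, the no-factor shRnd1 or the no-factor shRnd2 array, while the differences stayed between 0.68 and 1.1 for the 4 genes, and it was 2 of 6 (Ebp and Dhcr7) when arrays were scaled to one median in place of quantile normalization.

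Against LIF, 4 of 6 rose, where 7.91% of all features rose. The median of the 6 was 0.77 and that of all features -0.01. Dhcr7 rose by 1.55 (SE 0.22, 95% interval 1.05 to 2.06, adjusted p = 0.00223) and Idi1 by 1.38 (SE 0.22, 0.88 to 1.88, adjusted p = 0.00375), ratios of 2.94 and 2.60. For both, the lower side was detected on 1 of 2 arrays, so the ratio rests on 1 detected array on that side. Without background correction these differences were only 0.90 and 0.77, and both still passed. Insig1 rose by 0.83 (SE 0.17, adjusted p = 0.0146) and Mvd by 0.72 (SE 0.17, adjusted p = 0.0216). Ebp differed by 0.65 (0.11 to 1.19, adjusted p = 0.107) and Fdps by 0.48 (-0.02 to 0.98, adjusted p = 0.198), which did not pass. Dhcr7 and Idi1 kept their calls with each of the 8 arrays left out in turn. Insig1 lost its call in some of these fits. Mvd lost it in most, including some without an array outside the comparison. The count fell to 2 without the FGF4 shRnd1, FGF4 shRnd2, LIF shRnd1 or LIF shRnd2 array.

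LIF and no growth factor, both with control shRNAs, were compared directly, and 0 of 6 genes passed in limma, with 2 (Dhcr7 and Insig1) at an unadjusted p under 0.05. Of all features 0.00709% (1 of 14103) were lower and 0 higher, and 1031 had an unadjusted p under 0.05. Dhcr7 differed by -0.57 (95% interval -1.07 to -0.06, adjusted p = 0.62), Idi1 by -0.45 (-0.95 to 0.05) and Insig1 by -0.40 (-0.80 to 0). Ebp differed the other way, by 0.43 (-0.11 to 0.97), and Mvd and Fdps by 0.02 and -0.05. These intervals still allow differences of up to about 1 log2 unit for Dhcr7, Idi1 and Ebp.

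**Figure D3:**
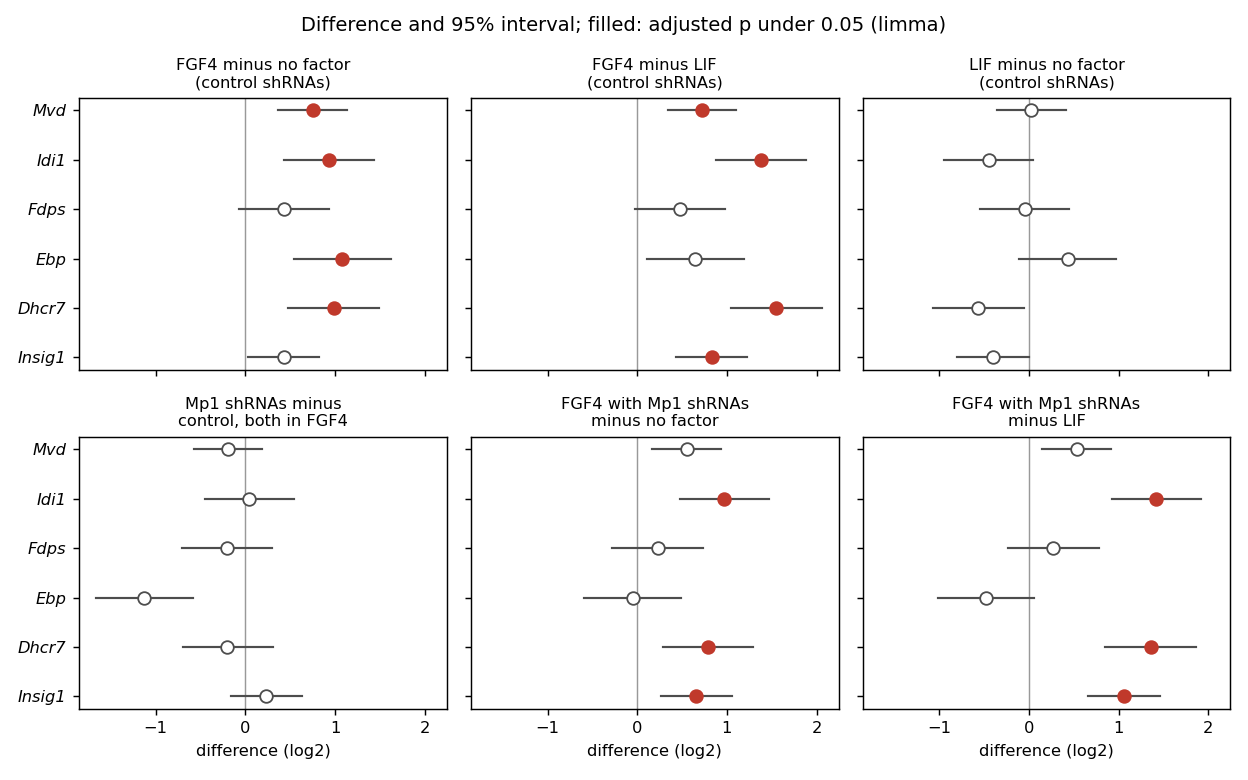
Log2 difference (x axis) with its 95% interval for the 6 tested genes (y axis) in each of 6 comparisons; filled points have an adjusted p under 0.05 in limma. Filled points are on the positive side in the 4 comparisons of an FGF4 group with LIF or no factor, and Ebp has the lowest difference, -1.13, between Mp1 and control shRNAs.

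The Mp1 shRNAs were compared with control shRNAs in FGF4 to see whether they altered its effect. None of the 6 genes passed, and 5 of the 6 differed by -0.21 to 0.23. Ebp stood apart from them at -1.13, a level 2.19 times higher in the controls. Its mean with Mp1 shRNAs was 8.54, against 8.58 with no factor and 9.02 with LIF. Ebp too missed the threshold.

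In that comparison 0 of 6 genes passed, where 0.0355% of all features fell and 9 of 14103 rose, and 2040 had an unadjusted p under 0.05. The median of the 6 was -0.19 and that of all features 0.05. Ebp differed by -1.13 (SE 0.23, 95% interval -1.67 to -0.59) with an unadjusted limma p of 0.00121 and an adjusted p of 0.142. The Mp1 arrays differed from each other, at 8.19 with shMp1Lib and 8.88 with shMP1G, and both were below 9.65, the lower FGF4 control. Without the shMP1G array the difference was -1.48 and passed (adjusted p = 0.00497), but 2925 of 14103 features passed in that setting, so the pass is not particular to Ebp. Without the shMp1Lib array the difference was -0.78 (adjusted p = 0.172), and 30 features passed. The 5 others differed by 0.23 for Insig1 (-0.16 to 0.63), 0.04 for Idi1 (-0.45 to 0.54), -0.19 for Mvd (-0.57 to 0.19), -0.20 for Dhcr7 (-0.70 to 0.31) and -0.21 for Fdps (-0.71 to 0.30).

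FGF4 with Mp1 shRNAs was also set against the 2 groups without FGF4. Against no factor Idi1, Dhcr7 and Insig1 rose, by 0.97 (SE 0.22, adjusted p = 0.0206), 0.79 (SE 0.22, adjusted p = 0.0476) and 0.66 (SE 0.17, adjusted p = 0.0395), which is 3 of 6 where 8.1% of all features rose. In settings other than leaving out an array, the difference was as low as 0.58 for Idi1 and 0.48 for Dhcr7. Dhcr7 passed in only 2 of 7 such settings, Idi1 in 5 of 7 and Insig1 in 5 of 8. Mvd differed by 0.55 (0.17 to 0.93, adjusted p = 0.0628), Fdps by 0.23 and Ebp by -0.05 (-0.59 to 0.49). The count was 0 without the no-factor shRnd1 or shRnd2 array, 1 without shMp1Lib or any one of the FGF4 control or LIF arrays, and 2 without shMP1G. It was also 0 with the 4 arrays of the comparison alone and 1 with array weights, which gave the Mp1 arrays 0.372 and the no-factor arrays 1.96.

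Against LIF the same 3 genes rose, Idi1 by 1.42 (SE 0.22, adjusted p = 0.00381), Dhcr7 by 1.36 (SE 0.22, adjusted p = 0.00491) and Insig1 by 1.06 (SE 0.17, adjusted p = 0.0052), where 11.1% of all features rose. They kept these calls with each array left out in turn, but with the 4 arrays of the comparison alone the count was 1, as Dhcr7 and Insig1 then had an adjusted p of 0.0514 and 0.0568. In settings other than leaving out an array, the difference was as low as 0.80 for Idi1 and 0.77 for Dhcr7. Mvd differed by 0.53 (0.15 to 0.91, adjusted p = 0.0582), Fdps by 0.27 and Ebp by -0.48 (-1.02 to 0.06). The 2 Mp1 arrays and the LIF and no-factor arrays also enter the other comparisons, so these values stand beside those and do not add independent evidence.

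The rest of the pathway was read from a list of 14 other enzymes, of which 8 had a named probe and 6 were tested. Against LIF, 4 of the 6 rose in FGF4 controls: Nsdhl, a decarboxylating dehydrogenase, by 1.37 (SE 0.29, adjusted p = 0.0146), Msmo1, the methyl oxidase before it, by 1.16 (SE 0.22, adjusted p = 0.00893), Lss, the cyclase that makes lanosterol, by 1.14 (SE 0.21, adjusted p = 0.00772), and Tm7sf2, a sterol reductase, by 0.79 (SE 0.21, adjusted p = 0.0389). The median over the 6 was 0.97 and that of all features -0.01, and 7.91% of all features rose. Hsd17b7, a ketoreductase of the same stretch of the pathway, differed by 0.07 (95% interval -0.33 to 0.47, adjusted p = 0.842) and by -0.24 against no factor (-0.65 to 0.16), and did not pass. Against no factor 1 of 6 passed, Lss at 0.92 (SE 0.21, adjusted p = 0.0202), where 7.84% of all features rose. The median of the 6 was 0.54 and that of all features -0.02. Lss had log2 values of 8.39 and 8.82 in FGF4 controls, 8.80 and 8.71 with Mp1 shRNAs, 7.58 and 7.35 with LIF and 7.56 and 7.82 with no factor. All 4 FGF4 arrays were above the 4 others.

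Nsdhl had 4 probes that were detected on at least 2 arrays. Against LIF they differed by 1.37, 1.08, 1.00 and 0.36, with adjusted p of 0.0146 for the tested probe and 0.0268, 0.0046 and 0.226 for the others when every probe was its own feature. Against no factor one of them, at 0.66, passed (adjusted p = 0.0287), and the tested probe did not. The LIF arrays differed from each other here, at 6.90 with shRnd1 and 7.68 with shRnd2 for the tested probe.

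With the Mp1 shRNAs 0 of these 6 enzymes passed against FGF4 controls (0 at an unadjusted p under 0.05), and their median was 0.01. Against LIF 3 passed, Nsdhl at 1.38, Msmo1 at 1.31 and Lss at 1.30, and against no factor 1 passed, Lss at 1.07 (SE 0.21, adjusted p = 0.0121). Of all features 11.1% rose against LIF and 8.1% against no factor. Pmvk, the kinase before Mvd, passed nowhere and had log2 values of 7.63 with shMp1Lib and 8.89 with shMP1G, against 9.02 and 8.94 in FGF4 controls. Pmvk and Fdps were thus low with shMp1Lib and not with shMP1G, whereas Ebp was below both FGF4 controls with either shRNA. Between LIF and no factor 0 of the 6 passed (2 at an unadjusted p under 0.05) and all 6 differences were negative.

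**Figure D4:**
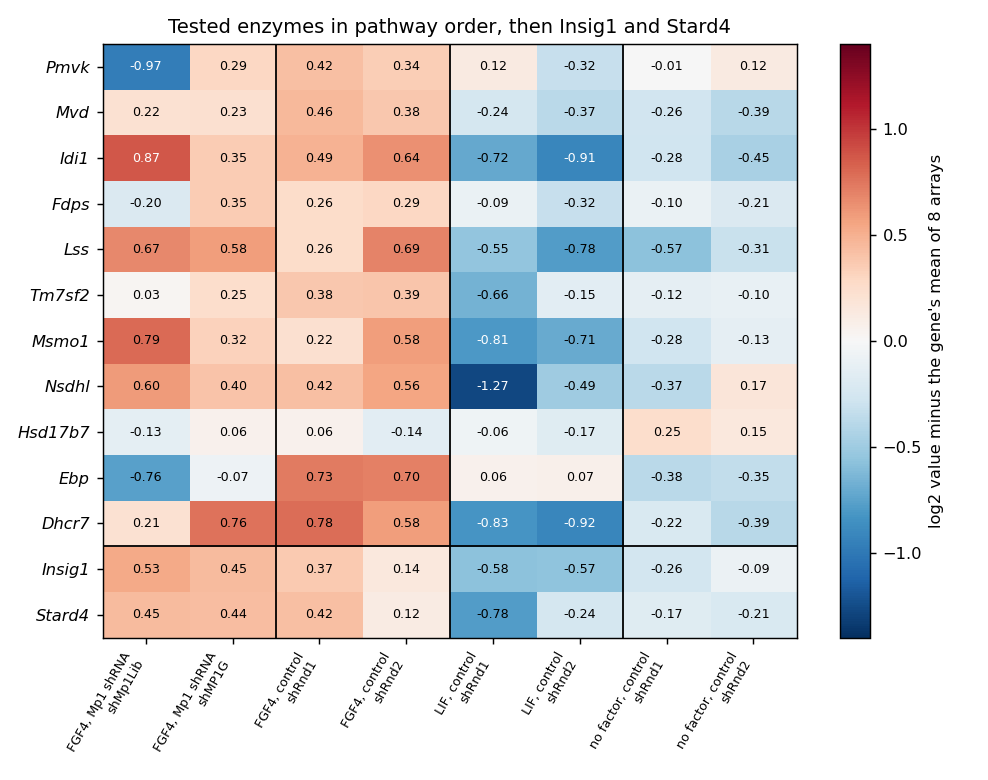
Log2 value of each gene minus its mean over the 8 arrays (colour and number), with rows in the order of the pathway, then Insig1 and Stard4 below the line, and columns the 8 arrays by group. Values of FGF4 controls are positive for every row but Hsd17b7 (0.06 and -0.14), and the lowest value is -1.27, for Nsdhl on the LIF array with shRnd1.

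Genes around the pathway were read from 4 further lists. Of the SREBP machinery, 6 of 8 genes were tested (Srebf2, Scap, Insig2, Mbtps1, Mbtps2 and Rnf139), and 0 passed in any of the 6 comparisons. In FGF4 controls against no factor their differences lay between -0.66 and 0.34, with a median of -0.15 and 0 at an unadjusted p under 0.05. Against LIF they lay between -0.22 and 0.58, with a median of -0.01 and 1 (Scap) at an unadjusted p under 0.05. Of the isoprenoid side branches, which use farnesyl diphosphate for dolichol, ubiquinone and prenylated proteins, 3 of 7 were tested and 0 passed anywhere. Of 12 genes of sterol uptake, efflux and transport 4 were tested, and Stard4, a cytosolic sterol carrier, rose in FGF4 controls against LIF by 0.78 (SE 0.22, adjusted p = 0.0483) and with Mp1 shRNAs against LIF by 0.96 (SE 0.22, adjusted p = 0.0213). Of all features 7.91% and 11.1% rose in these comparisons. Stard4 had log2 values of 8.73 and 8.43 in FGF4 controls, 8.76 and 8.75 with Mp1 shRNAs, 7.53 and 8.07 with LIF and 8.14 and 8.10 with no factor.

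Of 11 genes of fatty acid synthesis 5 were tested, and 0 passed in the comparisons of FGF4 controls with LIF or no factor, with 2 at an unadjusted p under 0.05 in each. With Mp1 shRNAs Fads2, a desaturase, rose against no factor by 1.08 (SE 0.29, adjusted p = 0.0417), and Scd2, another desaturase, rose against LIF by 0.80 (SE 0.24, adjusted p = 0.0478). Of all features 8.1% and 11.1% rose in these comparisons. Elovl6, an elongase, was lower with Mp1 shRNAs by -0.71 against no factor (adjusted p = 0.0448) and -0.75 against LIF (adjusted p = 0.0313), where 6.11% and 8.44% of all features were lower. A second Fads2 probe, detected on all 8 arrays, differed by 0.41 with Mp1 shRNAs against no factor and did not pass. Between Mp1 and control shRNAs in FGF4, Fads2 differed by 0.19, Scd2 by 0.20 and Elovl6 by -0.17, and 0 of the 5 passed. In FGF4 controls Fads2 differed by 0.89 against no factor and Scd2 by 0.60 against LIF. Elovl6 there differed by -0.54 against no factor and -0.58 against LIF.

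The 6 tested genes were also read together. The mean of their centred log2 values was 0.51 and 0.46 in FGF4 controls, 0.14 and 0.34 with Mp1 shRNAs, -0.40 and -0.50 with LIF and -0.25 and -0.31 with no factor. All 6 were above their own mean on both FGF4 control arrays, and 0 of 6 on either no-factor array. The Mp1 arrays were lower than the FGF4 controls in this mean, and single genes there ranged from -0.76 (Ebp) to 0.87 (Idi1), both with shMp1Lib. Ebp differed most, at -0.76 and -0.07 with Mp1 shRNAs against 0.73 and 0.70 in FGF4 controls. Group means of 2 of the 6 genes, Idi1 and Insig1, were higher with Mp1 shRNAs, so the lower mean is not shared by all.

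Among 8903 named features outside the lists, those whose values over the 8 arrays were most like this mean were Gtf3a, a transcription factor of ribosomal RNA genes (Pearson r = 0.992), the adhesion molecule Bcam (0.991), the aldolase Aldoc (0.989), Fah of tyrosine breakdown (0.989) and the immunoproteasome subunit Psmb8 (0.988, detected on 6 arrays). These 8 arrays fall in 4 groups, and 475 of the 8903 had an r above 0.9, so the likeness is shared by many genes and describes the contrast between groups. Gtf3a was at 11.70 and 11.72 in FGF4 controls, 11.41 and 11.50 with Mp1 shRNAs, 10.98 and 10.92 with LIF and 11.05 and 11.00 with no factor.

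In FGF4 controls against no factor or LIF, the only tested markers of cell state that passed were Pou3f1, Dnmt3b and Utf1. Of 4 epiblast markers, 2 had a named probe, and both rose in FGF4 controls. Pou3f1 rose by 4.40 against no factor (SE 0.23, adjusted p = 2.55e-05) and by 3.60 against LIF (SE 0.23, adjusted p = 6.91e-05). Dnmt3b had log2 values of 8.24 and 8.38 in FGF4 controls, 8.00 and 8.41 with Mp1 shRNAs, 5.21 and 5.27 with LIF and 5.62 and 5.11 with no factor (adjusted p = 0.00013 against no factor and 0.000151 against LIF for the FGF4 controls). It was detected on 0 of 2 LIF arrays and 1 of 2 no-factor arrays, so its level there is only bounded and no fold is given. The summed normalized intensity of these 2 was 2043 to 2110 in FGF4 controls, 1908 to 1992 with Mp1 shRNAs, 153 to 220 with LIF and 115 to 134 with no factor. With the Mp1 shRNAs Pou3f1 was above no factor by 4.31, where Ebp differed by -0.05, and above LIF by 3.51, where Ebp differed by -0.48.

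Of 8 ES markers 4 were tested. Sox2, Nanog and Zfp42 had no named probe, and Esrrb was detected on no array. The 4 tested summed to 44863 to 48087 in FGF4 controls and to 38791 to 42867 elsewhere, a sum carried by Dppa5a and Pou5f1. In FGF4 controls against no factor Dppa5a differed by 0.12, Pou5f1 by 0.13 and Tdgf1, also tested, by 0.30. Against LIF they differed by 0.10, 0.21 and 0.64, and none of these passed. Utf1, on the same list, rose in FGF4 controls by 1.62 against no factor (SE 0.26, adjusted p = 0.00361) and by 1.09 against LIF (adjusted p = 0.0239), and with Mp1 shRNAs by 1.60 and 1.07 (adjusted p = 0.00469 and 0.0248). Of 6 fibroblast markers, Col1a1, Col1a2, Col3a1, Postn and Lum were detected on no array, and Thy1 had a level of 185 to 197 in FGF4 controls, 120 to 232 with Mp1 shRNAs, 61 to 140 with LIF and 58 to 87 with no factor. Thy1 did not pass in FGF4 controls against no factor (1.42, adjusted p = 0.0635) or LIF (1.05, adjusted p = 0.157).

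Of 5 trophoblast markers 2 were tested, and Cdx2, Eomes and Elf5 were not. Tfap2c and Gata3 summed to 1399 to 1693 in FGF4 controls, 1101 to 2338 with Mp1 shRNAs, 2421 to 2881 with LIF and 2877 to 3121 with no factor. That sum is mostly Tfap2c, which differed by -1.06 between FGF4 controls and no factor (adjusted p = 0.0698), where Gata3 differed by 0.59 (adjusted p = 0.115). Between FGF4 controls and LIF, Tfap2c differed by -0.82 (adjusted p = 0.148) and Gata3 by -0.24 (adjusted p = 0.53). With Mp1 shRNAs Gata3 fell against no factor, at -0.87 (SE 0.22, adjusted p = 0.032), and against LIF, at -1.70 (SE 0.22, adjusted p = 0.00174), and it differed by -1.46 from FGF4 controls (adjusted p = 0.0726). In that last comparison Ebp differed by -1.13.

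The 4 tested endoderm markers summed to 154 to 198 over all arrays. Foxa2 and Afp, also on that list, were detected on no array. Sox1 and Pax6, of the neural list, were detected on no array either. The 2 tested neural markers summed to 76 on both Mp1 arrays, 111 to 128 in FGF4 controls, 76 to 117 with LIF and 124 to 140 with no factor. Of these Nes had log2 values of 5.21 and 4.84 with Mp1 shRNAs, 6.23 and 6.42 in FGF4 controls, 6.10 and 5.52 with LIF and 6.57 and 6.39 with no factor. It was detected on 0 of 2 Mp1 arrays, so no fold is given. It was lower with Mp1 shRNAs than with no factor (adjusted p = 0.00559). Against LIF (adjusted p = 0.0553) and against FGF4 controls (adjusted p = 0.11) Nes did not pass. Tubb3 with Mp1 shRNAs differed by 0.14 from FGF4 controls, by 0.03 from no factor and by 0.18 from LIF. The part of all these markers in the differences of the cholesterol genes was not tested. In such bulk RNA, fewer cells of one kind and less transcript per cell cannot be told apart.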

How the data were processed

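RNA of 8 samples was amplified with the Ambion TotalPrep kit and hybridised to Illumina arrays, per the labels' protocols. The deposited non-normalized table holds an intensity and a detection p-value for 45281 probes on each array, per the file headers, and names no scanner software. In 81.2% of the 362248 deposited intensity cells the decimal point was missing, and it was restored from the count of digits and, for 219658 cells with more than 1 reading, from the detection p-value.

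Intensities were corrected with normexp (offset 16), quantile normalized and put on the log2 scale (neqc, limma 3.58.1, R 4.3.3). Probes with a detection p under 0.05 on at least 2 arrays were kept, and a gene was read from its brightest probe, giving 14103 features. Differences came from a linear model of 4 group means over the 8 arrays with moderated variances (4 residual and 4.18 prior degrees of freedom). P-values were adjusted by Benjamini-Hochberg over all features within each of 6 comparisons. They reflect the spread of these arrays alone, which may be technical. The steps were tested on simulated data.

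A second deposited table holds intensity values of 42293 probes, of unstated scale and centring. Probes named for ribosomal proteins had a median percentile of 55.2 there and of 99.6 in the first table, so it served only for counts over unnamed features. The platform annotation gives 32245 probes 1 symbol, 17 several and 13019 none.

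Every member is named, as are listed pathway genes past the threshold in any comparison and the 5 other named features most correlated with the members' mean. Markers and the untested or uncalled pathway genes named beside them were added to show coverage. Members and lists were chosen with earlier results of these data known. Alternatives covered background correction, scaling, detection filters, probe choice, array weights, a trended prior, fewer arrays in the fit, a replicate block and each array left out in turn.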

Additional observations from a re-analysis of the deposited data

How the results depend on the processing

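The count of genes that passed, of 6, was recomputed under each alternative. For FGF4 controls against no factor it was 4, and 2 with arrays scaled to one median, 2 of the 4 genes detected on all 8 arrays, and 0 to 4 with 1 array left out. Against LIF it was 4, and 2 of 4 with that filter and 2 to 5 with 1 array left out. For Mp1 against control shRNAs it was 0, and 0 to 1 with 1 array left out. For Mp1 shRNAs against no factor it was 3, and 1 with median scaling, 1 of 4 with the filter, 0 with the 4 arrays of the comparison alone, 1 with array weights and 0 to 2 with 1 array left out. Against LIF it was 3, and 1 of 4 with the filter, 1 with its 4 arrays alone and 3 to 4 with 1 array left out. A lone array left in a group was assumed to vary like the other groups. The filter to all 8 arrays removes Dhcr7 and Idi1 by construction; for the other changes the cause was not tested. LIF against no factor stayed at 0 under every alternative run. Median scaling moved the median of all features to 0.21 for FGF4 controls against LIF, -0.19 for LIF against no factor and 0.28 for Mp1 shRNAs against LIF. Single genes turned sign only where they had not passed. Mvd for LIF against no factor was -0.23 with median scaling and -0.04 without the LIF shRnd1 or the no-factor shRnd2 array, and Fdps was 0.06 without LIF shRnd2 and 0.01 without the no-factor shRnd1 array (range with 1 array left out -0.16 to 0.06). For Mp1 against control shRNAs without shMp1Lib, Dhcr7 was 0.08 (lowest -0.47, without shMP1G), Idi1 -0.22 and Fdps 0.07 (lowest -0.48, without shMP1G), and Idi1 was -0.03 without the FGF4 shRnd1 array. For Mp1 shRNAs against no factor Ebp was 0.09 with median scaling and 0.30 without shMp1Lib (-0.39 without shMP1G), and Fdps was -0.05 without shMP1G and 0.50 without shMp1Lib. Against LIF Fdps was 0 and 0.55 without these arrays. Over all features the count was 2209 for FGF4 controls against no factor (1331 to 4117 in other settings), 2203 against LIF (1304 to 3104), 14 for Mp1 against control shRNAs (0 to 53), 2004 for Mp1 shRNAs against no factor (987 to 2426), 2761 against LIF (697 to 3345) and 1 for LIF against no factor (1 to 32). With 1 array left out these became 1002 to 3240, 978 to 3347, 0 to 2925, 736 to 4573, 893 to 6098 and 1 to 21. The shRNA number did not pair the control arrays, as the differences between shRnd1 and shRnd2 correlated across features at -0.083 (FGF4 and LIF), -0.07 (FGF4 and no factor) and 0.044 (LIF and no factor). With it as a replicate block in the 6 control arrays, 4, 5 and 0 of 6 genes passed for FGF4 against no factor, FGF4 against LIF and LIF against no factor. With 2 arrays a group, 1 cell line and dim probes for Dhcr7 and Idi1 under LIF, small differences could not be resolved.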
